A study of Mus musculus with 9 samples.

Results

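The methionine cycle and the transsulfuration branch that drains it were represented by 9 genes, taken by name from the 24341 genes of the FPKM table: Mat1a, Mat2a, Gnmt, Pemt, Ahcy, Bhmt, Bhmt2, Cbs, and Cth. All 9 were in the table and all 9 passed the filter on low values. They were followed in bulk liver from wild-type C57BL/6 mice 48 hours after treatment with FGK45, an agonist antibody against CD40 (3 anti-CD40 mice, numbered 2, 5, and 9), or after PBS (6 control mice, numbered 3, 4, 7, 8, 11, and 12). No deletion, transgene, tumor, or chemotherapy is named for either group in the labels, which give the genotype as wild type. Mice of the wider work were C57BL/6J or, in some experiments, came from colonies with a Cre transgene driven by the Pdx promoter, and whether any mouse here came from such a colony is not stated. The methods give an age of 8 to 12 weeks, again for the mice in general. The methods also exclude anti-CD40 mice whose blood B cells did not decline, and it is not stated whether that rule touched these 3. The values came from 3′ end libraries as FPKM, which divides reads by transcript length, so a level is set against the same gene in other mice and not against another gene.

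In this cycle, methionine adenosyltransferases join methionine to ATP and make S-adenosylmethionine (SAM), the donor for most methylation in the cell. Methyltransferases use SAM and leave S-adenosylhomocysteine (SAH), which adenosylhomocysteinase splits to homocysteine. Homocysteine is either methylated back to methionine, with betaine or a folate as donor, or passed through cystathionine to cysteine, which feeds glutathione and taurine. The liver is the main site of this metabolism, and adult hepatocytes are known for using Mat1a, whereas Mat2a is the form of most other cells and of dividing cells.

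Of the 9 genes, 4 fell after anti-CD40 and none rose at an adjusted p under 0.05 (limma over 13807 genes, Benjamini-Hochberg adjustment). Those 4 were Gnmt and Pemt, which spend SAM, Ahcy, which clears SAH, and Cbs, which commits homocysteine to transsulfuration. Mat1a and Bhmt, at the entry and the betaine return of the cycle, had intervals on both sides of 0. Across all genes tested, 45.1% were called, 23.5% higher and 21.7% lower. The median log2 fold change (log2FC) was -1.07 over the 9 genes and 0.0056 over all genes tested. For 5 of the 9 genes no value of one group lay within the other, against 42.4% of all genes tested.

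The promoters of the 4 genes that fell, and of Mat2a, whose estimate was on the other side of 0, are printed to show the DNA at their start sites. Each runs from 250 bases before to 50 bases after a start site in RefSeq (GRCm38.p6, the assembly behind mm10), and 7 of the 9 genes had such an entry. Capitals mark TATAA on the sense strand, and CCAAT, the E-box CACGTG, or the GC box GGGCGG on either strand. Pemt has 2 listed starts, and the first is shown.
Gnmt, chr17:46729116-46729415, minus strand: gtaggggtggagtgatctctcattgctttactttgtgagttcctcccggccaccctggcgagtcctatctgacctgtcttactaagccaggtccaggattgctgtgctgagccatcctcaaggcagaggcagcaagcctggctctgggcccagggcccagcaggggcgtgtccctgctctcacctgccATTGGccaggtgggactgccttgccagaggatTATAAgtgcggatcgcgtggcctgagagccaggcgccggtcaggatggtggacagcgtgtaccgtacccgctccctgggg
Pemt, chr11:60040139-60040438, minus strand: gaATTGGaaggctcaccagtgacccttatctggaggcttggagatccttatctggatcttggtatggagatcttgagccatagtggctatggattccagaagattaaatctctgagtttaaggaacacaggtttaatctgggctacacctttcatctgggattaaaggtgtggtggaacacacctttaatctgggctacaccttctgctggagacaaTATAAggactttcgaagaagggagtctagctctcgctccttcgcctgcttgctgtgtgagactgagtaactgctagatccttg
Ahcy, chr2:155074448-155074747, minus strand: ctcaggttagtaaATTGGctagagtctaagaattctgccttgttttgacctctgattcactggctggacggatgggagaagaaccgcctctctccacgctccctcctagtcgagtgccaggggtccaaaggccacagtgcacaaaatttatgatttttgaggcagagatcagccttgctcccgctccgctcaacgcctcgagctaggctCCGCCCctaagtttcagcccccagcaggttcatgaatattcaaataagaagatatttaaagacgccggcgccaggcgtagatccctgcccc
Cbs, chr17:31637156-31637455, minus strand: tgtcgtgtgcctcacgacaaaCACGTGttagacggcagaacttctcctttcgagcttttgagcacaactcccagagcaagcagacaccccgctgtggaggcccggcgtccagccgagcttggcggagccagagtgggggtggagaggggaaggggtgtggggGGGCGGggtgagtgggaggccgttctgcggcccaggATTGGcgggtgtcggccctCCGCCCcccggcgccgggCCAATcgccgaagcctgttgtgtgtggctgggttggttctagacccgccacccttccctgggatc
Mat2a, chr6:72439507-72439806, minus strand: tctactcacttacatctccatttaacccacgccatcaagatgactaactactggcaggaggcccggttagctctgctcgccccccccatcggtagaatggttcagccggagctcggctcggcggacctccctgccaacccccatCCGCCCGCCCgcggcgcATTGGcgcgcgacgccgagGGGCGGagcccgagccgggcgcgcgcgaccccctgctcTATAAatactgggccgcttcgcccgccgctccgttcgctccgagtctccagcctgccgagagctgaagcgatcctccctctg
A TATAA match began 30, 33, and 32 bases before the start in Gnmt, Pemt, and Mat2a, respectively, and 17.5% of 32544 promoters of this length held one. The Cbs window alone among the 7 genes held a CACGTG, 229 bases before the start, found in 7.17% of promoters. CpG dinucleotides numbered 11 in Gnmt, 3 in Pemt, 13 in Ahcy, 22 in Cbs, and 34 in Mat2a, against a median of 7 over all promoters. CCAAT was the only searched motif in all 4 printed windows of the genes that fell, and it was in the Mat2a window and in 37.4% of promoters too. The window of the second Pemt start, which is not printed, held no match to any searched motif. A match is a string of letters and not a binding site.

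SAM synthesis was examined first. Mat1a encodes the hepatocyte methionine adenosyltransferase and lies on chromosome 14 of mm10, from 41105033 to 41124428 on the plus strand. It was at an FPKM of 1205, 1459, and 1890 in anti-CD40 mice 2, 5, and 9, and 1332 to 2146 in control mice, with a median of 1669. Mouse 2 was below every control and mouse 9 above 5 of the 6, so the groups overlapped. The log2FC was -0.16 (standard error, SE, 0.18, 95% interval -0.57 to 0.24, limma adjusted p = 0.486), and the exact permutation p was 0.429, where the smallest that 84 divisions of the mice allow is 0.0238. Mat2a, on chromosome 6 from 72432799 to 72440615 (minus strand), had an FPKM of 44.2, 39.0, and 39.7 in anti-CD40 mice 2, 5, and 9, and 26.6 to 37.8 in control mice, with a median of 32.7. Every anti-CD40 mouse was above every control mouse (exact permutation p = 0.0238), but the distance was small. The mean was 41.0 ± 2.81 (SD, n = 3) against 32.7 ± 4.54 (SD, n = 6), a log2FC of 0.33 (95% interval 0.041 to 0.63, limma adjusted p = 0.0620). Over 19 alternative settings the adjusted p of Mat2a ran from 6.53e-04 to 0.207, and 5 settings put it past the threshold. Without control mouse 8 or 11 it was 0.0474 and 0.0450. In the table the position of Mat2a is shared with Particl, an antisense RNA at its start, which was listed at an FPKM of 1.42 to 1.73 in anti-CD40 mice and 1.52 to 2.18 in control mice. Whether the counting used strand is not stated, so reads of the overlap cannot be told apart. GENCODE M21 also gives 1 overlapping gene each for Gnmt, Ahcy, Bhmt, and Cth, on the opposite strand except for Cth. No gene listed in the table overlaps any of them, and reads of those overlaps cannot be told apart either.

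**Figure D1:**
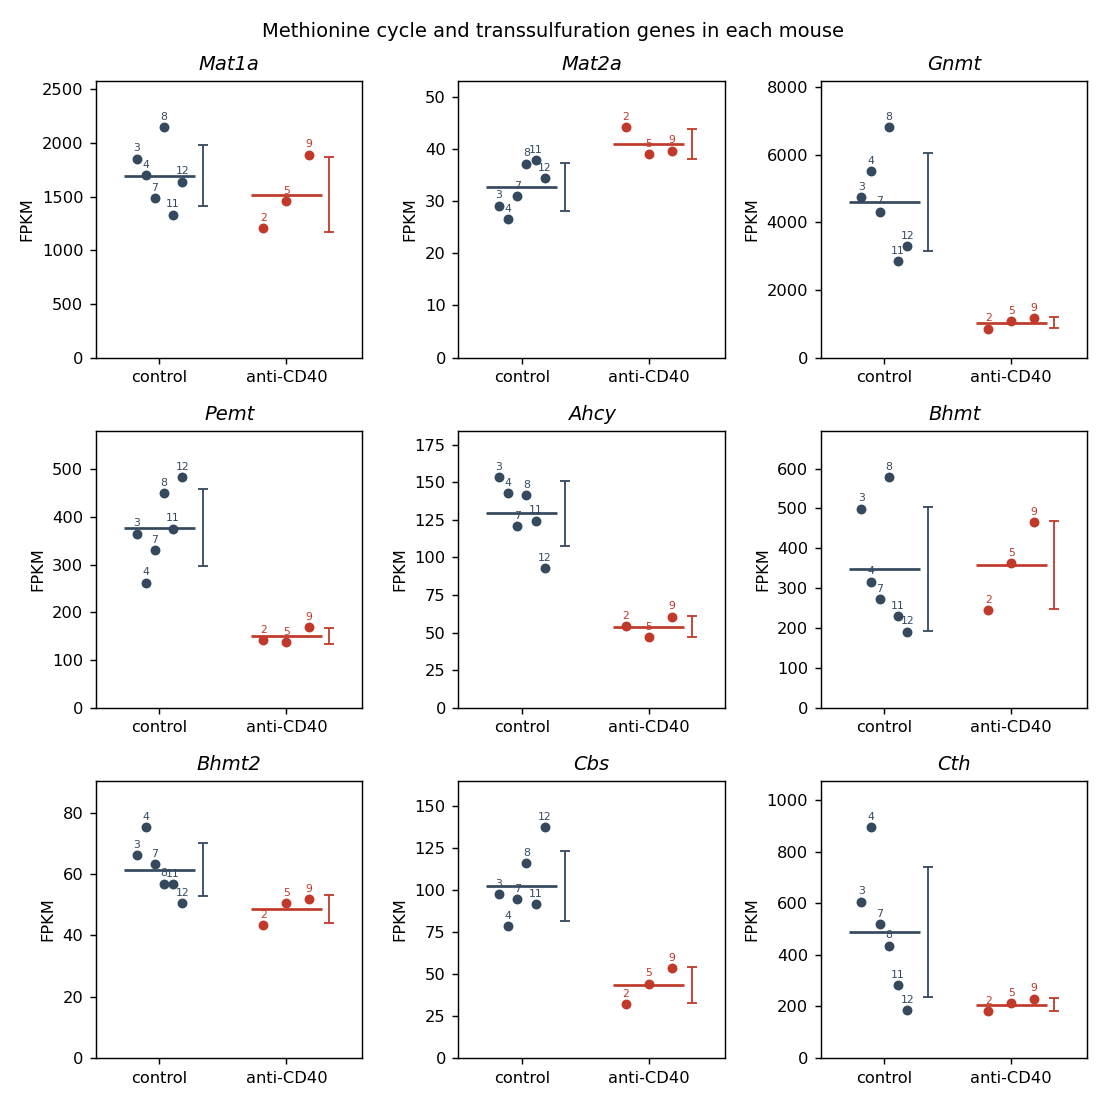
FPKM of the 9 genes in each mouse (points, numbered by mouse), with the group mean (line) and SD (bar), for 6 control and 3 anti-CD40 mice on linear axes that start at 0. The anti-CD40 points of Gnmt, Pemt, Ahcy, and Cbs lie below all control points, those of Mat2a lie above them, and those of Mat1a, Bhmt, Bhmt2, and Cth overlap them.

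The 2 genes that use SAM were both lower. Gnmt encodes glycine N-methyltransferase, an abundant liver enzyme that methylates glycine to sarcosine and is known as a regulator of the ratio of SAM to SAH. It lies on chromosome 17 from 46725664 to 46729165 (minus strand). It was at an FPKM of 856, 1083, and 1173 in anti-CD40 mice 2, 5, and 9, and 2861 to 6810 in control mice, with a median of 4531. The highest anti-CD40 value was well under the lowest control value, that of mouse 11. The mean was 4.42-fold lower, 1037 ± 163 (SD, n = 3) against 4589 ± 1452 (SD, n = 6), a log2FC of -2.10 (SE 0.26, limma adjusted p = 1.05e-04). This was the largest change in size among the 9 genes. Pemt encodes phosphatidylethanolamine N-methyltransferase, which makes phosphatidylcholine with methyl groups from SAM, and lies on chromosome 11 from 59970614 to 60046489 (minus strand). It was at 142, 138, and 170 in anti-CD40 mice 2, 5, and 9, while control mice ran from 262 to 483, with a median of 370. The groups were again apart, with a mean 2.52-fold lower and a log2FC of -1.31 (SE 0.18, limma adjusted p = 2.39e-04).

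Ahcy, the only member for the hydrolysis of SAH, lies on chromosome 2 from 155059312 to 155074497 (minus strand). It had an FPKM of 54.4, 46.8, and 60.7 in anti-CD40 mice 2, 5, and 9, and of 93.1 to 153 in control mice, with a median of 133. No value of one group reached the other, although control mouse 12 was the nearest. The mean was 2.40-fold lower, with a log2FC of -1.25 (SE 0.16, limma adjusted p = 1.40e-04). Within the last 500 bases of the Ahcy transcript, 1 other gene in GENCODE had a stretch of at least 75 bases at 95% identity or more, so some reads could be shared with it.

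The betaine branch differed from these genes. Bhmt and Bhmt2 are neighbors on the minus strand of chromosome 13, from 93616891 to 93637758 and from 93656097 to 93674302. Bhmt encodes betaine-homocysteine methyltransferase, which returns homocysteine to methionine. It was at an FPKM of 245, 364, and 465 in anti-CD40 mice 2, 5, and 9, and 191 to 578 in control mice, with a median of 295. The anti-CD40 mice lay inside the control range, which was wide (SD 44.7% of the mean), and the log2FC was 0.11 (95% interval -0.68 to 0.89, limma adjusted p = 0.823). An interval this wide does not show that the level was the same. Bhmt2 encodes a related enzyme that uses S-methylmethionine as the methyl donor. It was at 43.3, 50.5, and 52.0 in anti-CD40 mice 2, 5, and 9, while control mice ran from 50.5 to 75.2, with a median of 60.1. Only control mouse 12 was inside the anti-CD40 range. The log2FC was -0.33 (95% interval -0.63 to -0.032, limma adjusted p = 0.0684), and the exact permutation p was 0.0714. Over the alternatives the adjusted p of Bhmt2 ran from 0.0279 to 0.872, and it was 0.0316 without control mouse 12. The 3′ end of Bhmt resembled 1 other gene and that of Bhmt2 6 others by the same criterion as for Ahcy. The deposited models also stop short of the 3′ end that GENCODE M21 gives, by 216 bases for Bhmt and 377 for Bhmt2. These libraries are read from that end, so both values are uncertain.

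Transsulfuration begins with Cbs, cystathionine beta-synthase, on chromosome 17 from 31612623 to 31637205 (minus strand). Cbs was at 32.0, 44.2, and 53.4 in anti-CD40 mice 2, 5, and 9, while control mice ran from 78.3 to 137, with a median of 95.9. All 3 anti-CD40 mice were below all 6 control mice. The mean was 2.37-fold lower, and the log2FC was -1.25 (SE 0.20, limma adjusted p = 5.35e-04). The deposited model of Cbs stops 3729 bases short of the 3′ end that GENCODE M21 gives. These libraries are read from that end, so the Cbs value is uncertain too. The last 500 bases of the longer model resembled 2 other genes, and the end of the deposited model was not searched. Cth, cystathionine gamma-lyase, takes the next step to cysteine and lies on chromosome 3 from 157894248 to 157925063 (minus strand). It was at 180, 211, and 230 in anti-CD40 mice 2, 5, and 9. In control mice it ran from 185 to 894, with a median of 478, the widest spread of the 9 genes (SD 51.6% of the mean). Mouse 12 held the low end and was inside the anti-CD40 range, and the other 5 control mice were above it. The mean was 207 ± 25.03 (SD, n = 3) against 488 ± 252 (SD, n = 6), close in ratio to Cbs, but the log2FC of -1.07 had a SE of 0.41 and did not pass the test (limma adjusted p = 0.0570, exact permutation p = 0.0714). Without control mouse 12 it was -1.31 (adjusted p = 0.00717), and without control mouse 11 the adjusted p was 0.0470, in a range of 0.00717 to 0.295 over the alternatives. With quantile normalization the log2FC of Cth was -0.57 (adjusted p = 0.295).

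**Figure D2:**
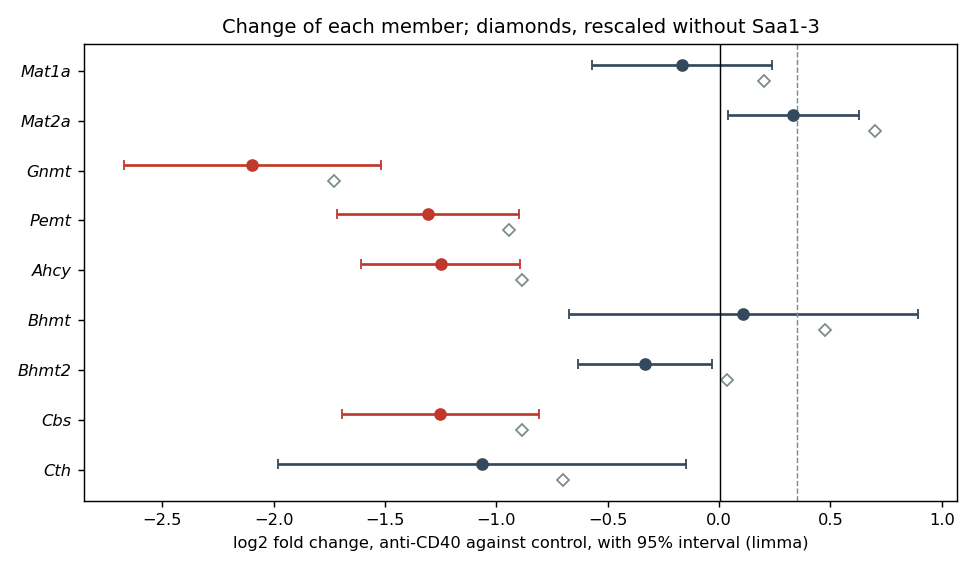
Log2 fold change (log2FC) of each gene, anti-CD40 (3 mice) against control (6 mice), from limma, with its 95% interval (circles and bars; red, adjusted p under 0.05). Diamonds give the same without Saa1, Saa2, and Saa3 and with mice rescaled, and the vertical lines mark the median of all genes in each case (0.0056, solid, and 0.35, dashed). Gnmt, Pemt, Ahcy, and Cbs stay left of both lines under both scalings.

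Serum amyloid genes took 25.4% to 25.9% of the summed FPKM in anti-CD40 mice and at most 0.380% in control mice. Leaving out Saa1, Saa2, and Saa3 and rescaling moved the median log2FC of all genes from 0.0056 to 0.35. Gnmt was then at -1.73, Pemt at -0.94, Ahcy at -0.88, and Cbs at -0.89, and all 4 were still called. Mat1a (0.20) and Bhmt2 (0.034) were then above 0, although relative to the median of all genes they moved little, from -0.17 to -0.15 and from -0.34 to -0.32. Mat2a was at 0.70, which is 0.35 above the shifted median and compares with 0.33 above the median before the shift.

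Ratios between 2 genes of 1 mouse do not move with any scaling of that mouse, and their change between groups does not depend on gene length. They are given as a description, without a test. The ratio of Gnmt to Mat1a was 0.710, 0.742, and 0.621 in anti-CD40 mice 2, 5, and 9, against 2.01 to 3.24 in control mice. The groups were apart, with a change of -1.93 on the log2 scale, so Gnmt was lower also relative to the gene whose enzyme makes its substrate. Ahcy relative to Mat1a changed by -1.09, from 0.0568 to 0.0935 in control mice to 0.0321 to 0.0451 after anti-CD40. The ratio of Mat1a to Mat2a, often read as a mark of the mature hepatocyte, was 27.3, 37.4, and 47.6 in anti-CD40 mice 2, 5, and 9, against 35.2 to 64.1 in control mice. Its change of -0.50 came with overlapping groups, since control mouse 11 was below anti-CD40 mice 5 and 9. Cth relative to Cbs spanned 1.35 to 11.4 in control mice and 4.30 to 5.63 in anti-CD40 mice, inside the control range.

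**Figure D3:**
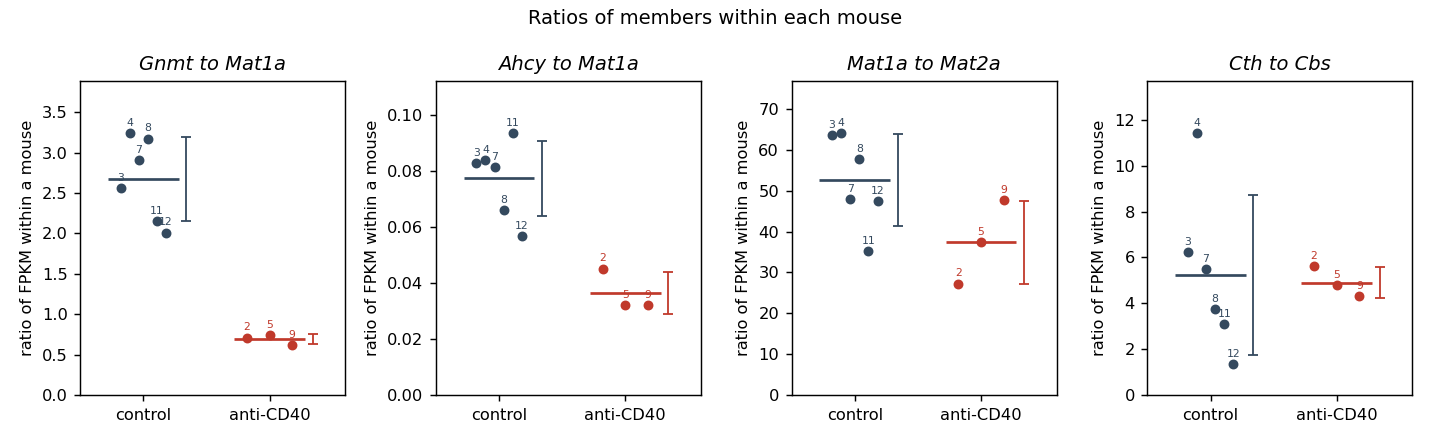
Ratio of the FPKM of 2 genes in each mouse (points, numbered by mouse), with the group mean (line) and SD (bar), on linear axes from 0. The 3 anti-CD40 mice lie below all 6 control mice for Gnmt to Mat1a (0.621 to 0.742 against 2.01 to 3.24) and Ahcy to Mat1a, and overlap them for Mat1a to Mat2a and Cth to Cbs.

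The spread between mice had its own pattern. Control mouse 12 was the lowest of its group in 4 of the 9 genes (Ahcy, Bhmt, Bhmt2, and Cth) and the highest in Cbs and Pemt. Mouse 4, by contrast, was the highest control for Bhmt2 and Cth and the lowest for Mat2a, Pemt, and Cbs. Among anti-CD40 mice, mouse 9 was the highest in 8 of the 9 genes and mouse 2 the lowest in 6. The spread among control mice was lowest for Mat2a (SD 13.9% of the mean). Centred on the control mean, the profile over the 9 mice nearest to that of Mat1a was that of Vwce (root mean square difference 0.107 on the log2 scale), followed by Haus5 (0.115) and Rabgap1l (0.115), among 13806 genes. The genes nearest to Mat2a were Farsa (0.0858), Fam174b (0.0933), and Pygo2 (0.0935). Mat1a and Mat2a differed from each other by 0.424.

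Of 64 further genes around the cycle, 60 could be tested. In these, 5 rose and 28 fell, with a median log2FC of -0.33, against 23.5% and 21.7% of all genes tested. With the Saa genes left out and rescaling the counts were 15 higher and 22 lower (40.5% of calls higher, compared with 15.2%), and the median was 0.039 where that of all genes was 0.35. Over all genes tested, the same rescaling moved the calls from 3240 higher and 2990 lower to 5635 higher and 1647 lower. Other small-molecule methyltransferases fell in 5 of 7 genes. Inmt, an indolethylamine N-methyltransferase, had an FPKM of 28.8, 22.5, and 30.3 in anti-CD40 mice 2, 5, and 9, and of 888 to 1296 in control mice, a log2FC of -5.39 (limma adjusted p = 1.31e-08). Gamt, which makes creatine and is held to be a major user of SAM, was at 16.9, 20.6, and 26.4 against 116 to 278, a log2FC of -3.14 (adjusted p = 8.24e-06). Both were below every control by a wide margin. The deposited model of Gamt runs from 79697305 to 80369637 on chromosome 10, far longer than that of any of the 9 genes. Other genes within it were not searched for, so the Gamt value is uncertain. Nnmt, which methylates nicotinamide, did not pass the test (log2FC 0.11, adjusted p = 0.787).

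Choline and betaine genes fell in 5 of 7, against 21.7% of all genes tested. Among them were the betaine aldehyde dehydrogenase gene Aldh7a1 (log2FC -2.05), the dimethylglycine and sarcosine dehydrogenase genes Dmgdh (-1.46) and Sardh (-2.13), and Pipox (-1.84). Sardh oxidizes the sarcosine that Gnmt makes. Chdh, the choline dehydrogenase gene, was not called (log2FC -0.25, adjusted p = 0.421). Its deposited model is also long, from 30009000 to 30527056 on chromosome 14, and other genes within it were not searched for. Among 12 genes of cysteine use, 6 fell and none rose, against 21.7% and 23.5% of all genes tested. These were Cdo1, the cysteine dioxygenase gene of taurine synthesis (-0.84), and the sulfur oxidation genes Suox (-1.82), Mpst (-1.91), Tst (-1.77), Ethe1 (-1.97), and Sqrdl (-1.09). Neither subunit of glutamate-cysteine ligase, the first enzyme of glutathione synthesis, passed the test (log2FC -0.16 for Gclc and -0.21 for Gclm).

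Folate genes went both ways, with 4 higher and 9 lower of 20, against 23.5% and 21.7% of all genes tested. The mitochondrial genes Mthfd2 and Mthfd1l rose, Mthfd2 from 1.11 ± 0.482 (SD, n = 6) to 8.73 ± 1.18 (SD, n = 3), a log2FC of 2.96 (limma adjusted p = 3.93e-05), and Mthfd1l from 0.608 ± 0.265 (SD, n = 6) to 4.57 ± 0.395 (SD, n = 3), a log2FC of 2.80 (limma adjusted p = 3.25e-05). Shmt2, whose enzyme supplies the same mitochondrial pathway from serine, fell (-1.71), as did its cytosolic counterpart Shmt1 (-2.03), Mthfd1 (-1.08), and Aldh1l1 (-1.64). Methionine synthase, Mtr, which remethylates homocysteine with folate, rose, with means of 1.33 ± 0.284 in control mice (SD, n = 6) and 2.94 ± 0.681 after anti-CD40 (SD, n = 3), a log2FC of 1.09 (adjusted p = 0.00160). Genes of dividing cells moved in the same mice: all 8 listed were higher, with a summed FPKM of 106 to 148 after anti-CD40 and 12.3 to 30.6 in control mice. Their part in the folate values was not tested.

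In polyamine synthesis and methionine salvage, 3 of 9 genes fell and 1 rose, against 21.7% and 23.5% of all genes tested. Adi1 (-1.12) and Mri1 (-0.87) act in the salvage of methionine, and Odc1 (-0.58) makes putrescine. Odc1 lost the call without the Saa genes (-0.22, adjusted p = 0.173), when its distance from the shifted median of all genes was -0.57. Sms, the spermine synthase gene, had a log2FC of 0.52 (adjusted p = 0.0478) with overlapping groups. None of the 5 genes beside SAM supply and SAH passed the test in the main fit. They include Mat2b, the regulatory subunit of the Mat2a enzyme (log2FC -0.25, adjusted p = 0.366), and Mettl16, which methylates the Mat2a transcript (0.21, adjusted p = 0.174). Without the Saa genes, Mettl16 (0.57, adjusted p = 0.00153), Ahcyl1 (0.51, adjusted p = 0.00493), and Ahcyl2 (0.54, adjusted p = 0.0477) passed, and Mat2b and Adk did not. Relative to the shifted median of all genes, those 3 were at 0.22, 0.16, and 0.19.

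**Figure D4:**
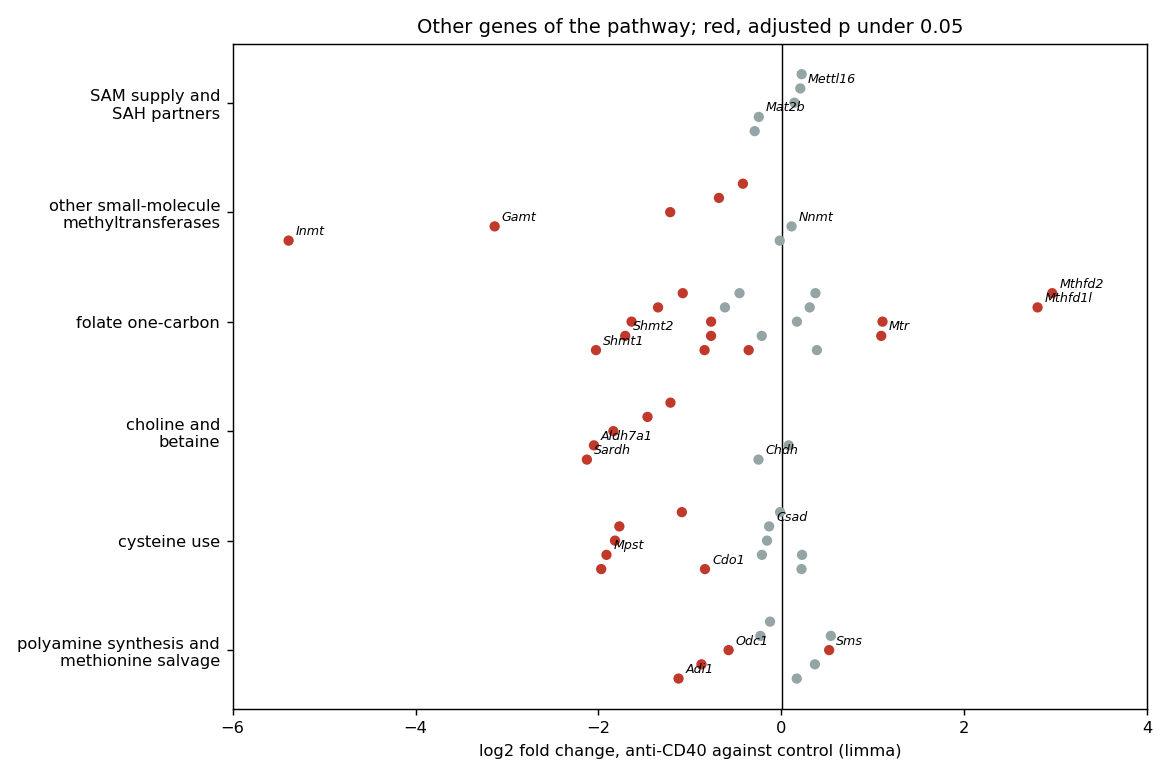
Log2 fold change of 60 further genes of the pathway, anti-CD40 against control (limma), by role, 1 point a gene (red, adjusted p under 0.05), with the median of all genes as the vertical line and points spread vertically within a role only to separate them. Mthfd2 (2.96) and Mthfd1l (2.80) lie far to the right, and Inmt (-5.39) and Gamt (-3.14) far to the left.

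In bulk liver, fewer hepatocytes and less RNA per hepatocyte cannot be told apart. Of 10 hepatocyte markers, 7 fell and 3 rose, and their summed FPKM was 36249 to 42951 in anti-CD40 mice and 53863 to 108929 in control mice. These sums were not rescaled for the Saa genes. Those took 25.4% to 25.9% of the summed FPKM in anti-CD40 mice, which lowers the anti-CD40 sums and widens the gap. Markers of pericentral and of periportal hepatocytes each fell in 6 of 10. Neutrophil markers rose in 7 of 7 and lymphocyte markers in 7 of 8, whereas 6 of 8 Kupffer cell and macrophage markers fell and 1 rose. Endothelial (2 of 7 higher, 3 lower) and stellate markers (3 of 8 higher, 2 lower) were called in both directions. Beside these and the other marker counts, 23.5% of all genes tested were called higher and 21.7% lower. Of 5 cholangiocyte markers, 2 rose (Sox9 and Spp1) and none fell. Anti-CD40 mouse 5 also held pancreatic acinar transcripts, with a summed FPKM of 1125 against 27.8 and 33.3 in mice 2 and 9 and 71.4 to 196 in control mice. Mouse 5 was the lowest of its group for Mat2a, Pemt, and Ahcy and between mice 2 and 9 for the other 6 genes. Dropping any 1 mouse kept the log2FC between -2.22 and -1.96 for Gnmt, -1.41 and -1.23 for Pemt, -1.34 and -1.15 for Ahcy, and -1.42 and -1.05 for Cbs. The part of cell composition in these values was not tested.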

How the data were processed

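The livers of 9 mice (3 anti-CD40, 6 control, grouped by the sample titles) were sequenced with QuantSeq 3′ libraries. The authors aligned reads to mm10 with STAR and made FPKM values with Cufflinks and Cuffdiff. The annotation and the filter applied to the deposited FPKM table are not given in the sources used here. Estimates failed in at least 1 mouse for 15 of 24341 genes, which were left out, and the floor is an FPKM of 0.01.

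Values were tested as log2(FPKM + 0.1), a scale that understates the change of low genes, for the 13807 genes whose mean FPKM reached 0.1, by limma 3.58.1 under R 4.3.3 (eBayes with a trend, 2-sided, Benjamini-Hochberg adjustment at 0.05 over all genes tested) and treatment as the only factor. Every adjusted p comes from this fit unless an alternative setting is named beside it. Single genes had a 2-sided exact permutation test over 84 divisions of the mice. The methods describe block randomization of mice for all animal studies, and elsewhere say that experiments were not randomized unless so stated. Any blocks of these mice, their batches, and their litters are not given in the sources used here. Read totals are not part of the table, which leaves the depth unknown and allows no counting interval. A mouse had 14684 to 15545 genes above that floor.

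The members, the lists, and the tests were chosen with earlier results of these data known, and a p for a member is no independent evidence. The text names the members, genes of the fixed pathway list, and the 3 genes with profiles nearest to those of Mat1a and of Mat2a. Particl is named for its overlap with Mat2a. Saa1, Saa2, and Saa3 were chosen after their values were seen, as were Sox9 and Spp1 among the cholangiocyte markers. A limma fit of the same kind was tested on simulated data, with 200 genes changed by known amounts. The other steps had no such test. Start positions in the table count from 0 and were raised by 1. Sqrdl is the name in the table for Sqor. Protein sequences were not used here. Python 3.11.15, numpy 2.4.6, pandas 2.3.3, scipy 1.17.1, and matplotlib 3.10.9 did the other steps. Values of some listed genes are not reported here.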

Additional observations from a re-analysis of the deposited data

How the results depend on the processing

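Gnmt, Pemt, Ahcy, and Cbs kept their direction and an adjusted p under 0.05 (limma) in all 19 alternatives. The number of members called lower ran from 4 to 6. The number called higher moved from 0 to 1 (Mat2a) with quantile normalization, with Saa1, Saa2, and Saa3 left out and rescaling, and with array weights, and was 0 to 1 with each mouse left out. Mat1a reversed to 0.19 with quantile normalization and to 0.20 without the Saa genes, where its distance from the median of all genes was -0.15, compared with -0.17. Mat2a passed the threshold at 0.58, 0.70, and 0.32 under those 3 settings in turn and ran from 0.28 to 0.38 with each mouse left out. Bhmt2 was above 0 without the Saa genes (0.034, or -0.32 relative to the median of all genes, compared with -0.34), passed at -0.32 with array weights, and ran from -0.39 to -0.25 with each mouse left out. Cth passed at -1.05 with array weights, was -0.57 with quantile normalization and -0.70 without the Saa genes (neither past the threshold), and ran from -1.31 to -0.86 with each mouse left out. Bhmt ran from -0.11 (without anti-CD40 mouse 9) to 0.36 with each mouse left out, was -0.041 without control mouse 12, and was 0.58 with quantile normalization and 0.47 without the Saa genes, never past the threshold. Of the further pathway genes, 5 were called higher, compared with 3 when no filter was applied, 15 without the Saa genes, 3 to 5 with each mouse left out (3 without anti-CD40 mouse 2), and between 22 and 29 were called lower. Over all genes, that setting called 5635 higher and 1647 lower, against 3240 and 2990. The rescaling shifts every gene by construction. The other causes were not tested. No paired analysis was possible because the groups share no mouse number and any blocks of a randomization are not given in the sources used here. The unknown depth limits what can be said of low genes.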
